A study of Mus musculus with 12 samples.

Results

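To describe how the antigen presentation machinery of MHC class I changed around birth, 10 genes were followed in bulk RNAseq of mouse lung. The genes were chosen by their symbols, with earlier results of these data known. They were *B2m*, *H2-K1*, *H2-D1*, *Tap1*, *Tap2*, *Tapbp*, *Psmb8*, *Psmb9*, *Psmb10* and *Nlrc5*. All 10 were found among the 16152 genes of the deposited count table and passed the filter on low counts, which left 15994 genes. The libraries came from whole lungs of C57BL/6 mice, with no genetic change and no treatment, at 2 embryonic time-points (E15.5 and E18.5) and 2 postnatal time-points (P5 and P8), with 3 replicates at each and 12 in all. Males and females were both used, and each time-point was sampled from 1 litter, so that litter and age cannot be told apart. P-values therefore measure the spread between littermates. The counts per library in the deposited count table lay between 41337443 and 53901957, and the mapped reads between 48436716 and 62279460. A gene with no read allows up to 3 counts. At these mapped reads that is between 0.0482 and 0.0619 CPM (the count scaled to 1000000 mapped reads), which covers counting error only.

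Almost every nucleated cell shows peptides from its own proteins on MHC class I molecules, where CD8+ T cells and natural killer cells can inspect them. The peptides are cut by the proteasome, whose 3 constitutive catalytic subunits (encoded by *Psmb6*, *Psmb7* and *Psmb5*) can be replaced by the immunoproteasome subunits encoded by *Psmb9*, *Psmb10* and *Psmb8*. The TAP transporter, made of the products of *Tap1* and *Tap2*, carries the peptides into the endoplasmic reticulum, where tapasin (*Tapbp*) holds empty class I molecules close to it. A class I molecule consists of a heavy chain, encoded in this strain by *H2-K1* and *H2-D1* among others, and of beta-2 microglobulin (*B2m*). NLRC5 is a coactivator that drives transcription of class I genes together with the RFX factors, and interferon gamma induces the whole set, in part through IRF1.

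Levels are given as CPM, as deposited by the authors, in the order of the replicates. A gene was called differentially expressed at an FDR under 0.05 (edgeR's quasi-likelihood test, Benjamini-Hochberg over all 15994 genes) together with a log2 fold change past 1 in either direction. From E18.5 to P5 all 10 genes rose by this rule, where 17.5% of all genes tested were called higher. Their median log2 fold change was 2.35, with a range from 1.41 to 5.45, beside a median of -0.0024 over all genes. From E15.5 to E18.5 none was called higher, where 1.59% of all genes were, and 1 (*Nlrc5*) was called lower, where 1.46% were. From P5 to P8 1 gene (*Nlrc5*) was called higher, where 2.88% were. Over the full span from E15.5 to P8 all 10 were called higher, where 20.9% of all genes were, with a median of 3.19. In every one of the 10 genes the lowest P5 library lay above the highest E18.5 library, as in 34.4% of all genes, and the lowest P8 library lay above the highest P5 library, as in 20.8%.

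Of the 10 genes, 7 lie on chromosome 17, most of them in the MHC, and because the genes moved together the promoters of those with an interferon or NF-kB sequence are shown, and that of *Tap1*, which shares most of its window with *Psmb9*. RefSeq promoter windows (build GRCm38.p6, from 250 bases before to 50 after the transcript start) were at hand for 8 of the 10 genes, and *Tap2* and *Nlrc5* had none. Each window was searched on both strands for an interferon-stimulated response element core (GAAA, any 2 bases, GAAA), a gamma-activated site (TTCNNNGAA), the palindromic NF-kB site of class I genes (GGGATT followed by CCCC) and CCAAT, the sequence bound by NF-Y. The motifs did not overlap each other in the windows printed. The response element core was found in 1 of the 8 genes, *B2m*, and in 3.45% of all 32544 promoter windows of this length. The gamma-activated site was found in *Psmb8* alone, against 8.33% of all windows. The NF-kB site was found in *H2-K1* and *H2-D1*, against 0.086% of all windows. CCAAT was found in 6 of the 8 genes, against 37.4%. *Psmb10* held none of the 4 motifs, and *Tapbp* held CCAAT only. These matches describe letters in a window and not binding. Only exact spellings were counted, so a window without a match can still hold a variant of the same element. The 250 bases before the start are printed below with the matches in capitals, which mark the response element core and CCAAT in *B2m*, the NF-kB site and CCAAT in *H2-K1* and *H2-D1*, the gamma-activated site in *Psmb8* and CCAAT in *Tap1*.
*B2m*, chr2:122147437-122147686, plus strand: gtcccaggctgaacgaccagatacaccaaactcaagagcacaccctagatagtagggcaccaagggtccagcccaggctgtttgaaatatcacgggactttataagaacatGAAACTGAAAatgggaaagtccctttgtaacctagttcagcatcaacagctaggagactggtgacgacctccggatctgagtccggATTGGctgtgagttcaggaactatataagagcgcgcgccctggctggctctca
*H2-K1*, chr17:34000348-34000597, minus strand: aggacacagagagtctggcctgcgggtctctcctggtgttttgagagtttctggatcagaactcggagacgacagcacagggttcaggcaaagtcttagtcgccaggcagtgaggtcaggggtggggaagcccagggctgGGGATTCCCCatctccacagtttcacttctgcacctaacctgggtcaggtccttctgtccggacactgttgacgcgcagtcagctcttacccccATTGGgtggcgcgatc
*H2-D1*, chr17:35262844-35263093, plus strand: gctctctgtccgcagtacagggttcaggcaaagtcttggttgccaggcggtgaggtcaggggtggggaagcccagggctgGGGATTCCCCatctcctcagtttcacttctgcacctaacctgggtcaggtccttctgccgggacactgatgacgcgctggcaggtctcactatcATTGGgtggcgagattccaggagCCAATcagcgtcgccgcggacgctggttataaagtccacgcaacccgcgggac
*Psmb8*, chr17:34197945-34198194, plus strand: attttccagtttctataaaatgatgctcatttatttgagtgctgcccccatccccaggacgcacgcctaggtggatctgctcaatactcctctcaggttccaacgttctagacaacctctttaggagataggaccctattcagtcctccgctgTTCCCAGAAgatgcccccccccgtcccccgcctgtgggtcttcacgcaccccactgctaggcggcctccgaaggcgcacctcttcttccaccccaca
*Tap1*, chr17:34187306-34187555, plus strand: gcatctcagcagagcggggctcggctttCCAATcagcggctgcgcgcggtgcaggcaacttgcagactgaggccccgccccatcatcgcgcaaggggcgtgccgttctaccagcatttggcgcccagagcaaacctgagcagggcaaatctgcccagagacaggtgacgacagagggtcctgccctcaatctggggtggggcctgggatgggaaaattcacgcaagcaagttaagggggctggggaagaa
Aligned without gaps on the NF-kB match, *H2-K1* and *H2-D1* were identical at 166 of 190 upstream bases (87.4%). *Tap1* and *Psmb9* start head to head, and 275 bases of their windows are the same stretch read on opposite strands, so the sequence printed for *Tap1* is also most of that of *Psmb9*.

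At P5 and P8 the chains of the class I molecule itself were the most abundant members. Before birth *Tapbp* lay above *H2-K1*, at means of 29.3 against 21.1 CPM at E15.5 and 34.9 against 24.4 CPM at E18.5. *B2m* (ENSMUSG00000060802, chr2:122147686-122153083, plus strand, Gencode vM21 on mm10), the light chain, was at 112, 115 and 104 CPM in the E15.5 libraries, 129.5, 128 and 125 at E18.5, 322, 315 and 319 at P5, and 409.8, 346 and 416 at P8. The 3 libraries of P5 lay within 7 CPM of each other and all stood well above the embryonic ones, with no overlap between any neighbouring time-points. The log2 fold change was 1.41 from E18.5 to P5 (SE 0.080, edgeR FDR = 1.77e-08), a rise of 2.65-fold. From P5 to P8 it was 0.28 (SE 0.078, edgeR FDR = 0.0296), past the FDR but not the fold threshold.

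*H2-K1* (ENSMUSG00000061232, chr17:33996017-34000347, minus strand), a classical heavy chain, was at 21.9, 21.9 and 19.6 CPM at E15.5, then at 24.1, 30.2 and 18.99 at E18.5. It reached 183, 155 and 176 CPM at P5 and 308, 239 and 259 at P8. The embryonic time-points overlapped each other, and neither postnatal time-point overlapped another. From E18.5 to P5 it rose 7.45-fold (log2 fold change 2.90, SE 0.16, edgeR FDR = 1.65e-08). *H2-D1* (ENSMUSG00000073411, chr17:35262730-35267499, plus strand), the other classical heavy chain, was at 47.0, 46.9 and 42.0 CPM in the E15.5 libraries, 58.7, 66.0 and 57.2 at E18.5, 359.6, 319 and 333 at P5, and 511, 405 and 451 at P8. Its rise from E18.5 to P5 was 5.91-fold (log2 fold change 2.56, SE 0.11, edgeR FDR = 2.46e-09). The fitted factors of both heavy chains were larger than that of the light chain, a difference between genes that was not tested. H2 heavy chain genes are near-identical in part, and the way reads were shared out between them was not tested, so that the values of single H2 genes are uncertain.

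The genes that supply peptides rose over the same interval. *Tap1* (ENSMUSG00000037321, chr17:34187553-34197225, plus strand), 1 chain of the peptide transporter, was at 7.17, 6.49 and 6.31 CPM in the E15.5 libraries, 8.39, 4.88 and 5.66 at E18.5, 25.6, 28.2 and 24.9 at P5, and 47.9, 37.7 and 49.7 at P8. The embryonic time-points overlapped, and the P8 libraries all lay above those of P5. The rise from E18.5 to P5 was 4.41-fold (log2 fold change 2.14, SE 0.18, edgeR FDR = 4.08e-07). *Tap2* (ENSMUSG00000024339, chr17:34203527-34216321, plus strand), the partner chain, was at 2.82, 2.3 and 2.64 CPM in the E15.5 libraries, 3.59, 4.59 and 3.75 at E18.5, 15.8, 17.5 and 14.5 at P5, and 23.2, 26.5 and 22.4 at P8. It stood above its E15.5 level in every E18.5 library (log2 fold change 0.63, SE 0.13, edgeR FDR = 0.00686) and rose 4.25-fold from E18.5 to P5 (log2 fold change 2.09, SE 0.13, edgeR FDR = 3.22e-08). *Tapbp* (ENSMUSG00000024308, chr17:33915899-33929292, plus strand), which encodes tapasin, was at 28.9, 33.4 and 25.7 CPM in the E15.5 libraries, 35.0, 39.1 and 30.5 at E18.5, 103, 100.2 and 91.65 at P5, and 132, 132 and 144 at P8. Annotated exons of *Tapbp* and its neighbour *Zbtb22* share 149 bases on the same strand, 4.11% of the exonic length of *Tapbp*. From E18.5 to P5 tapasin rose 2.998-fold (log2 fold change 1.58, SE 0.11, edgeR FDR = 6.71e-08).

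*Psmb8* (ENSMUSG00000024338, chr17:34197721-34201454, plus strand), an immunoproteasome subunit that takes the place of the product of *Psmb5*, was at 1.66, 2.48 and 1.42 CPM in the E15.5 libraries, 2.13, 2.26 and 1.56 at E18.5, 13.1, 12.4 and 12.8 at P5, and 19.6, 21.6 and 16.3 at P8. It was low in all 6 embryonic libraries, where it rested on 72 to 126 counts each, and higher in every postnatal one. *Psmb9* (ENSMUSG00000096727, chr17:34181987-34187764, minus strand), which takes the place of the product of *Psmb6*, was at 2.001, 4.42 and 2.03 CPM in the E15.5 libraries, 2.03, 2.35 and 2.69 at E18.5, 16.1, 14.5 and 14.6 at P5, and 24.9, 20.3 and 22.99 at P8. *Psmb10* (ENSMUSG00000031897, chr8:105935735-105938444, minus strand), which takes the place of the product of *Psmb7*, was at 13.7, 19.7 and 11.2 CPM in the E15.5 libraries, 13.1, 13.8 and 12.3 at E18.5, 36.5, 33.6 and 33.4 at P5, and 43.6, 40.8 and 42.5 at P8. In each of these 3 genes E15.5 replicate 2 was the highest E15.5 library. That library also stood apart in the thymus markers, with a summed level of 67.3 CPM beside 7.46 and 8.73 CPM in the other two, and the part of thymus RNA in these levels was not tested. From E18.5 to P5 *Psmb8* rose 6.83-fold (log2 fold change 2.77, SE 0.21, edgeR FDR = 1.51e-07). *Psmb9* rose 6.78-fold (log2 fold change 2.76, SE 0.26, edgeR FDR = 1.27e-06) and *Psmb10* 2.81-fold (log2 fold change 1.49, SE 0.16, edgeR FDR = 2.98e-06). The annotated exons of *Tap1* and *Psmb9* overlap on opposite strands by 212 bases, which is 5.79% of the exonic length of *Psmb9*, and the strand setting of the counting is not given in the sources used here.

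*Nlrc5* (ENSMUSG00000074151, chr8:94434356-94527272, plus strand), the coactivator of class I genes, was the least abundant of the set and moved most. It had 19, 16 and 13 counts at E15.5 (0.307, 0.315 and 0.256 CPM), 8, 3 and 1 counts at E18.5 (0.164, 0.0574 and 0.0183 CPM), 222, 128 and 221 counts at P5 (3.56, 2.64 and 3.63 CPM) and 486, 510 and 562 counts at P8 (9.97, 8.33 and 9.24 CPM). No time-point overlapped another, and E18.5 was the lowest. The 12 counts of E18.5 and the 571 of P5 gave a ratio of levels of 43.1 (exact 95% interval 24.5 to 84.0, counting error only), and edgeR gave a log2 fold change of 5.45 (SE 0.41, edgeR FDR = 1.64e-07). From P5 to P8 it rose again by 2.76-fold (log2 fold change 1.47, SE 0.29, edgeR FDR = 0.00735). This call was lost without the 3 libraries highest in thymus markers (E15.5 replicate 2 and P8 replicates 1 and 2), at a log2 fold change of 1.46. P8 is then a single library. From E15.5 to E18.5 it fell by 1.87 on the log2 scale (SE 0.47, edgeR FDR = 0.0153), with a ratio of 0.263 from 48 and 12 counts (exact 95% interval 0.127 to 0.503). That fall rested on few reads and was no longer called without E18.5 replicate 2 (edgeR FDR = 0.0601), without the 3 thymus-rich libraries (edgeR FDR = 0.0507) or when only those 2 time-points were fitted (edgeR FDR = 0.135).

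**Figure D1:**
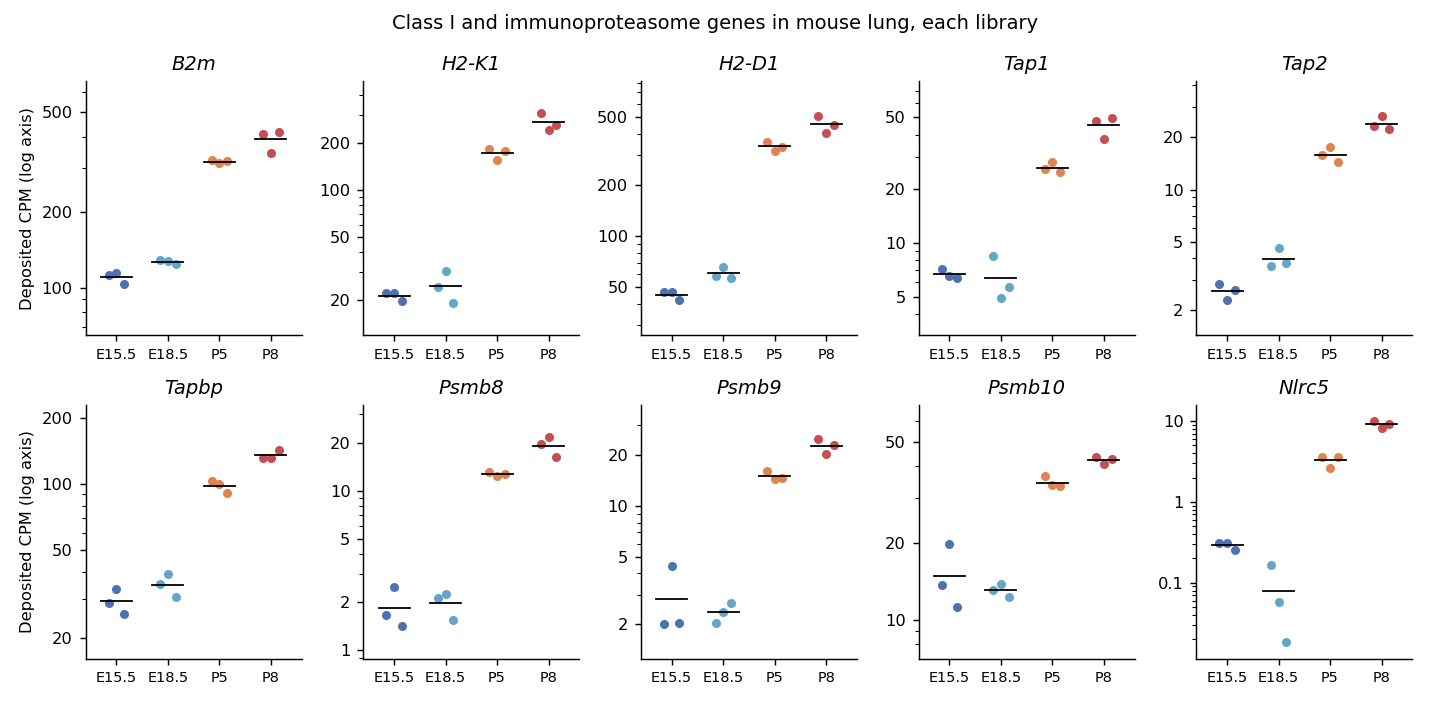
Deposited CPM (log axes, a separate scale for each gene) of the 10 class I and immunoproteasome genes in each library of the 4 time-points. Points are single libraries and horizontal lines are means of 3. In every panel the P5 points lie above all E18.5 points, as in 34.4% of all genes. The P8 points lie above all P5 points, as in 20.8%. *Nlrc5* spans the widest range, from 0.0183 to 9.97 CPM.

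Smaller steps were also measured on either side of birth. At an FDR under 0.05 with no fold threshold, 2 of the 10 genes (*Tap2* and *H2-D1*) were higher at E18.5 than at E15.5, where 11.6% of all genes were, and *Nlrc5* was lower, where 9.87% were. *H2-D1* moved from 45.3 ± 2.86 to 60.6 ± 4.71 CPM (SD, n = 3), a log2 fold change of 0.43 (SE 0.10, edgeR FDR = 0.0137). By the same rule 7 of the 10 were higher at P8 than at P5, where 9.75% of all genes were. The 3 that were not past the FDR were the immunoproteasome genes, with log2 fold changes of 0.57 for *Psmb8* (SE 0.19, edgeR FDR = 0.0548), 0.58 for *Psmb9* (SE 0.24, edgeR FDR = 0.113) and 0.28 for *Psmb10* (SE 0.15, edgeR FDR = 0.22). *Tap1* had the largest step among the other genes after *Nlrc5*, at 0.77 (SE 0.17, edgeR FDR = 0.0112). The count of 7 fell to 1 without P5 replicate 3, where the count over all genes fell from 1559 of 15994 to 593 of 15957. It fell to 3 without P5 replicate 2 (813 of 15969 over all genes) or P8 replicate 1 (732 of 15874). Without E15.5 replicate 2 it rose to 10 (1783 of 15926 over all genes). Without the 3 thymus-rich libraries P8 is a single library, so that count is not given.

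Levels between genes were compared per length, as CPM per kb of annotated exon. At P8 the order was *B2m* at 454 ± 45.3, *H2-D1* at 177 ± 20.6, *H2-K1* at 91.4 ± 12.1, *Tapbp* at 37.6 ± 1.91 and *Psmb10* at 24.8 ± 0.809 CPM per kb (SD, n = 3). *Tap1* followed at 8.24 ± 1.19, then *Tap2* at 6.36 ± 0.572, *Psmb9* at 6.21 ± 0.622 and *Psmb8* at 5.67 ± 0.789, whose libraries overlapped each other, and last *Nlrc5* at 1.08 ± 0.0969 CPM per kb. The lowest *Tap1* library (6.88 CPM per kb) also lay below the highest of *Tap2* (7.01). At E18.5 the light chain was at 148 ± 3.04 CPM per kb beside 23.5 ± 1.83 for *H2-D1* and 8.32 ± 1.92 for *H2-K1*. At P5 the light chain was at 370 ± 3.83 CPM per kb beside 131 ± 8.06 for *H2-D1* and 58.3 ± 4.81 for *H2-K1*.

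To ask whether the rise was shared by the constitutive proteasome, each immunoproteasome subunit was set against the subunit it replaces. The genes of the 3 constitutive subunits moved the other way from E18.5 to P5, by less than the fold threshold. *Psmb5* went from 71.03 ± 4.45 to 50.5 ± 0.242 CPM (SD, n = 3; log2 fold change -0.40, SE 0.069, edgeR FDR = 0.000179). *Psmb6* went from 173 ± 16.7 to 123 ± 2.91 CPM (log2 fold change -0.41, SE 0.084, edgeR FDR = 0.000871), and *Psmb7* from 85.7 ± 3.42 to 57.4 ± 3.43 CPM (log2 fold change -0.49, SE 0.067, edgeR FDR = 3.04e-05). At an FDR under 0.05 alone, 35.7% of all genes were lower over this interval.

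The ratio of *Psmb8* to *Psmb5* CPM was 0.0224, 0.0319 and 0.0196 at E15.5, 0.0316, 0.0297 and 0.0224 at E18.5, 0.26, 0.246 and 0.252 at P5, and 0.381, 0.413 and 0.355 at P8. Over all embryonic and all postnatal libraries the mean log2 ratio moved from -5.28 ± 0.30 to -1.69 ± 0.34 (SD, n = 6 each), a difference of 3.59 (exact two-sided permutation test, p = 0.00216, the smallest these 6 against 6 libraries allow; adjusted over the 3 pairs, 0.00216). For *Psmb9* to *Psmb6* the mean log2 ratio moved from -6.20 ± 0.36 to -2.65 ± 0.45, a difference of 3.55 with the same exact permutation p = 0.00216. For *Psmb10* to *Psmb7* it moved from -2.72 ± 0.20 to -0.51 ± 0.27, a difference of 2.21, also with exact permutation p = 0.00216. Embryonic and postnatal libraries did not overlap in any pair, and the test counts libraries of 2 litters on each side as separate.

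As a share of the pair per kb of exon, *Psmb8* made up 0.736% ± 0.127 (SD, n = 3) at E18.5, which became 6.30% ± 0.171 at P5 and 9.24% ± 0.64 at P8. *Psmb9* made up 0.691% ± 0.0493, 5.89% ± 0.435 and 9.67% ± 1.23 at the same time-points. *Psmb10* started from a much larger share, 23.4% ± 1.35, and reached 54.7% ± 2.59 at P5 and 62.2% ± 1.96 at P8. Per kb of exon *Psmb10* lay above *Psmb7* at P5 and P8, while *Psmb8* and *Psmb9* lay below *Psmb5* and *Psmb6*. By CPM alone *Psmb10* lay below *Psmb7*, at mean ratios of 0.603 at P5 and 0.823 at P8. The length used joins all annotated exons of a gene and is not that of a single transcript. The order within this pair and the size of the shares therefore rest on the annotation. The shares are of RNA in whole lung and not of assembled proteasomes.

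**Figure D2:**
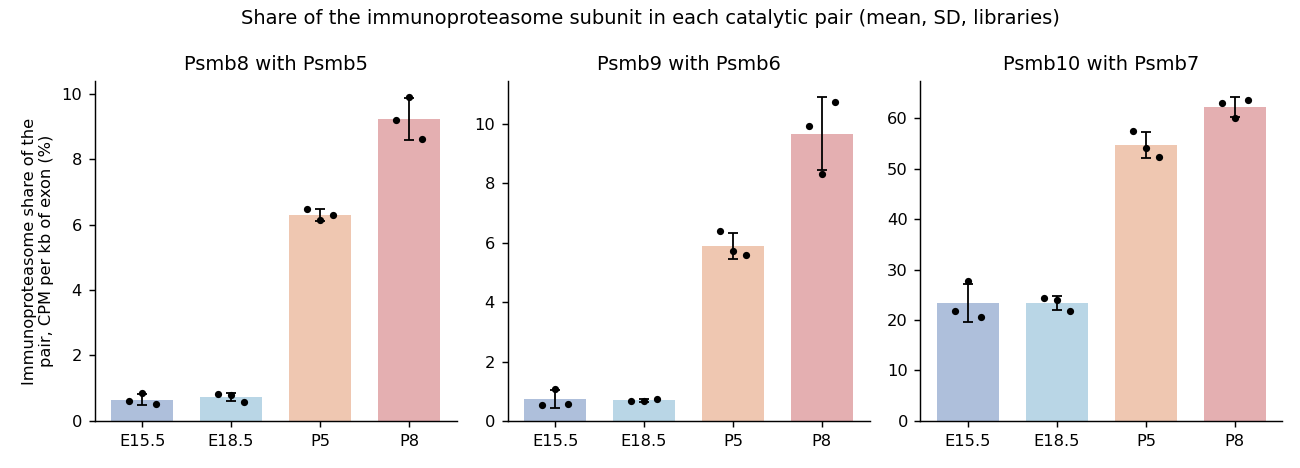
Share of the immunoproteasome subunit in the sum of each catalytic pair, in percent of CPM per kb of exon, for *Psmb8* with *Psmb5*, *Psmb9* with *Psmb6* and *Psmb10* with *Psmb7* at the 4 time-points. Bars are means of 3 libraries with SD, and points are single libraries; each postnatal bar stands above both embryonic bars, and single libraries reach 63.6% in the third panel and at most 10.8% in the others.

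The rest of the pathway was followed through gene lists grouped by role. The rest of the proteasome core, 11 subunits, held no called gene from E18.5 to P5, where 9.34% of all genes were called lower. At an FDR under 0.05 alone 8 of the 11 were lower, against 35.7% of all genes, with a median log2 fold change of -0.30. *Psmb4* (log2 fold change -0.15, edgeR FDR = 0.0431) and *Psmb1* (-0.15, edgeR FDR = 0.105), both structural beta subunits, were the most abundant of them. Among 9 activators and assembly factors 1 gene was called, the assembly chaperone *Psmg1*, which fell by 1.08 on the log2 scale (SE 0.088, edgeR FDR = 3.21e-07). The activator subunits *Psme1* and *Psme2*, which form the interferon-inducible PA28 cap, were the only 2 of the 9 that were higher at an FDR under 0.05, where 35.4% of all genes were. *Psme1* was at 66.7 ± 4.26 CPM at E18.5 and 93.3 ± 4.92 at P5 (log2 fold change 0.57, SE 0.062, edgeR FDR = 3.92e-06). *Psme2* was at 50.8 CPM (range 46.6 to 53.6) at E18.5 and 75.4 CPM (range 73.4 to 77.5) at P5 (log2 fold change 0.66, SE 0.068, edgeR FDR = 2.46e-06). The other 7 of the list were lower at that threshold, among them *Psme4*, another activator (log2 fold change -0.47, edgeR FDR = 3.59e-05), and the assembly factor *Pomp* (-0.27, edgeR FDR = 0.00102).

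Of 19 other heavy chains and class I-like genes, 15 were tested, 9 were called higher from E18.5 to P5, against 17.5% of all genes, and none lower, with a median log2 fold change of 1.08. All 15 were higher at an FDR under 0.05 alone, against 35.4% of all genes. *H2-T23*, which encodes the non-classical chain Qa-1, rose from 4.52 to 34.0 CPM (7.998-fold, edgeR FDR = 2.88e-08). *H2-M3*, which presents N-formylated peptides, rose from 0.925 to 5.42 CPM (log2 fold change 2.63, SE 0.23, edgeR FDR = 5.67e-07). *H2-Q4* rose from 13.2 to 34.9 CPM (log2 fold change 1.49, edgeR FDR = 6.55e-07), and *Fcgrt*, the neonatal Fc receptor that pairs with beta-2 microglobulin, from 40.8 to 81.2 CPM (1.08, edgeR FDR = 4.28e-07). *Mr1*, which presents vitamin B metabolites, and *H2-T22* stayed under the fold threshold, at log2 fold changes of 0.63 and 0.85.

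The partners of peptide loading, most of them general chaperones and translocation factors, were mixed in direction. Of 11 such genes 1 was called, where 17.5% of all genes were called higher. It was *Tapbpl*, a tapasin-related peptide editor, which rose from 7.10 to 20.1 CPM (log2 fold change 1.59, SE 0.11, edgeR FDR = 1.12e-07). At an FDR under 0.05 alone 7 of the 11 were lower and 2 were higher, where 35.7% of all genes were lower and 35.4% higher, and the median log2 fold change was -0.44. *Calr*, the chaperone calreticulin, went from 748 to 465 CPM (log2 fold change -0.60, edgeR FDR = 8.72e-06), and *Pdia3*, the disulphide isomerase of the loading complex, from 784 to 527 CPM (-0.49, edgeR FDR = 6.72e-06).

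**Figure D3:**
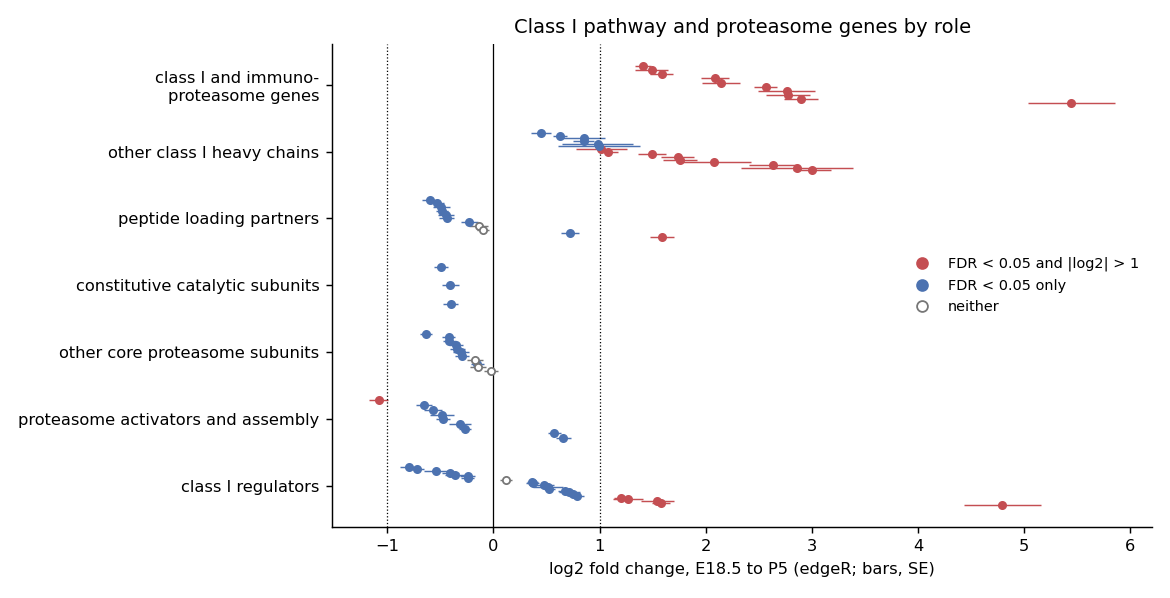
Step from E18.5 to P5 as log2 fold change (edgeR, bars are SE) of every tested gene in 7 groups of the class I pathway and the proteasome. Red points passed both thresholds, blue points the FDR only and open points neither; all 10 class I and immunoproteasome genes are red, while the 3 constitutive catalytic subunits and most of the proteasome core lie between -1 and 0.

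Among the regulators, 22 of 24 were tested and 5 were called higher from E18.5 to P5, none lower, a share near the 17.5% of all genes called higher. At an FDR under 0.05 alone 14 were higher, against 35.4% of all genes, and 7 lower, near the 35.7% of all genes, with a median log2 fold change of 0.50. *Irf1*, a transcription factor induced by interferons, was at 16.4 ± 1.68 CPM at E18.5, 46.1 ± 1.75 at P5 and 52.8 ± 2.76 by P8 (first step 1.58 on the log2 scale, SE 0.085, edgeR FDR = 1.30e-08). *Irf9*, the DNA-binding subunit of the complex that type I interferons activate, rose from 11.5 to 31.6 CPM (log2 fold change 1.54, edgeR FDR = 2.02e-06) and *Ifngr1*, a chain of the interferon gamma receptor, from 45.6 to 98.9 CPM (1.21, edgeR FDR = 3.22e-08).

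*Ciita*, the class II relative of *Nlrc5*, was at 0.331 ± 0.0791 CPM at E18.5 and 8.74 ± 0.148 at P5 (log2 fold change 4.79, SE 0.36, edgeR FDR = 1.74e-07). *Rfx5*, a subunit of the complex through which NLRC5 reaches promoters, went the other way, from 17.4 ± 1.75 to 11.2 ± 0.945 CPM (log2 fold change -0.54, SE 0.11, edgeR FDR = 0.000925). *Jak1* (0.36, edgeR FDR = 4.55e-05) and *Ifnar1* (0.12, edgeR FDR = 0.0692), a kinase and a receptor chain of the interferon pathway, were the most abundant regulators not called. Of the interferon genes only *Ifng* and *Ifnb1* were followed, and both had few reads or none. *Ifnb1* was listed at 0 in all 12 libraries, and *Ifng* at 0 in the 6 embryonic libraries and in P5 replicate 1 and P8 replicate 2, with at most 0.103 CPM elsewhere. Both were held only in the CPM table and were not tested.

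Leukocytes carry much class I RNA, and their markers moved with the set. The counts of called markers stand against 17.5% of all genes called higher and 9.34% called lower from E18.5 to P5. The summed level of 10 leukocyte markers lay between 70.3 and 84.0 CPM at E18.5, 458 and 567 at P5, and 666 and 868 at P8, and all 10 of them were called higher from E18.5 to P5, with a median log2 fold change of 2.70 beside 2.35 for the 10 class I and immunoproteasome genes. Endothelial markers moved as well: their summed level went from 1432 to 1544 CPM at E18.5 to 3169 to 3332 at P5, with 8 of 10 called higher and a median of 1.16. The summed level of 8 epithelial markers went from 1897 to 2762 to between 12396 and 13997 CPM, with 3 called higher and 1 lower. Most of that sum was *Sftpc*, at a mean of 1417 CPM at E18.5 and 12281 at P5. The median log2 fold change of the epithelial list was -0.28. At an FDR under 0.05 alone 3 of the 8 were higher and 4 lower, where 35.4% and 35.7% of all genes were. The summed level of 8 erythroid markers went from 4002 to 4744 to between 11991 and 19667 CPM, with all 7 tested called higher. Mesenchyme markers lay between 4620 and 4851 CPM at E18.5 and between 5387 and 5905 at P5, with 2 of 8 called higher, near the share of all genes. No marker of these 5 lists was at 0 at any time-point. In bulk tissue more cells of a type and more RNA per cell cannot be told apart, and the part of any cell type in the rise was not tested. Thymus markers lay between 5.60 and 6.55 CPM at E18.5, with *Cd8b1* and *Foxn1* at 0 in all 3 libraries, and between 12.6 and 17.8 CPM at P5, with *Foxn1* at 0. At P8 they stood at 238 and 453 CPM in replicates 1 and 2 and at 24.3 CPM in replicate 3.

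**Figure D4:**
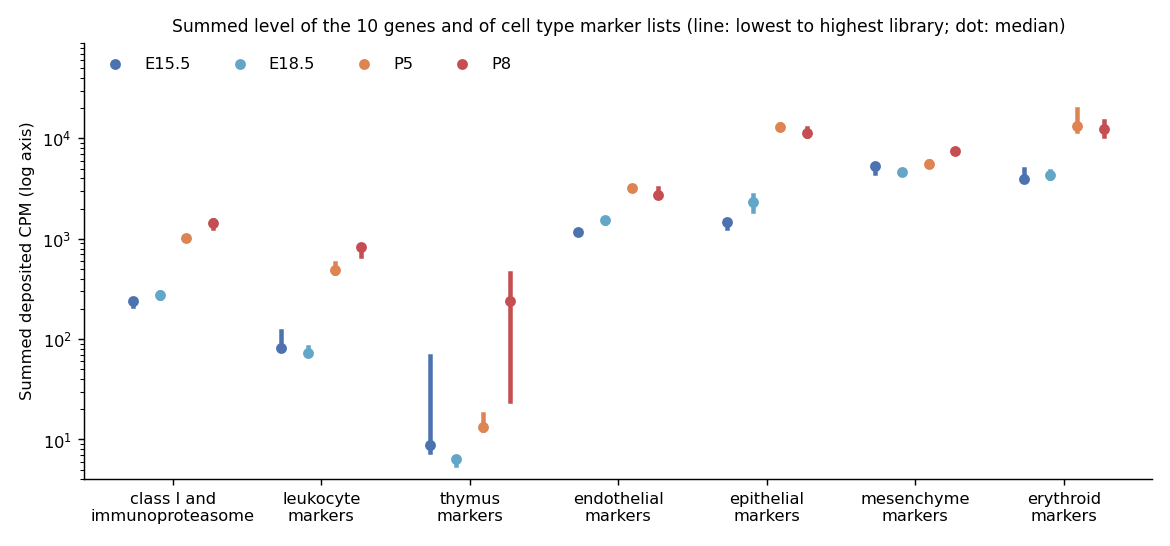
Summed deposited CPM (log axis) of the 10 class I and immunoproteasome genes and of 6 cell type marker lists at the 4 time-points, where dots are the median library and lines run from the lowest to the highest. The leukocyte markers step up with the class I genes between E18.5 and P5, from a median of 72.2 to 489 CPM, while the thymus markers spread from 24.3 to 453 CPM among the P8 libraries.

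The level of each gene over the 12 libraries, as log2(CPM + 1), gave Pearson correlations among the 10 members between 0.94 (*Psmb10* and *Tap2*) and 0.998 (*H2-D1* and *B2m*). Outside the set, 5 genes of at least 5 CPM were most like the mean of the 10 by Pearson correlation, each at 0.996. They were *Pbxip1*, *Lmna* (nuclear lamins A and C), *Itgb2* (the beta 2 integrin chain of leukocytes), *Nt5e* (the ecto-enzyme CD73) and *Unc93b1* (a carrier of endosomal Toll-like receptors). By Spearman correlation the 5 were other genes: *Igtp*, *Ifit1bl1*, *Hexa*, *Creb3* and *Galns*, at 0.972 to 1. *Itgb2* was at 2.73 CPM at E18.5 and 51.4 at P5, *Nt5e* at 3.53 and 36.7, and *Unc93b1* at 12.3 and 40.2. High Pearson values were common: 1251 of the 12149 genes compared had a correlation above 0.95. The 12 points come from 4 litters, and the reason for such values was not tested.

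Splicing of *Tapbp* was also measured, as percent spliced in (PSI), the share of reads at an intron that retain it. The study listed this intron as differential in these libraries, so its values are given as a description, with no test. The intron was retained in 18.4, 13.4 and 16.01% of reads at E15.5 and in 20.1, 18.4 and 15.53% at E18.5. It was retained in 6.48, 2.20 and 3.26% at P5 and in 3.17, 1.32 and 1.62% at P8. All 6 embryonic libraries lay above all 6 postnatal ones, while neighbouring time-points on the same side of birth overlapped. The corrected reads behind these shares numbered 96.7 to 169.9 in embryonic and 298 to 518 in postnatal libraries. The exact 95% intervals ran from 12.3 to 26.0% in E15.5 replicate 1 and from 0.525 to 2.72% in P8 replicate 2. Reads with the intron went from 16.6 to 34.2 per library at E18.5 to between 6.55 and 26.2 at P5, and reads without it from 90.1 to 136 to between 289 and 378. Every P5 library held more reads without the intron than any E18.5 library, while the reads with it overlapped between the 2 time-points.

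**Figure D5:**
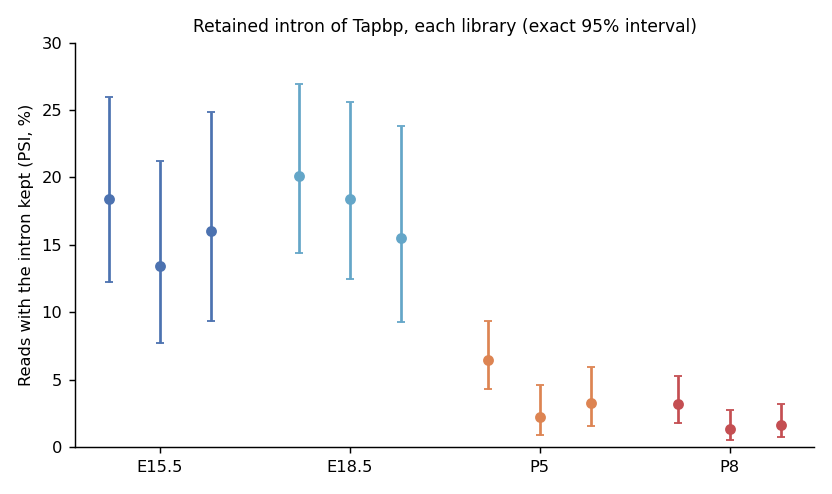
Percent of reads that retain the listed *Tapbp* intron (PSI) in each library of the 4 time-points, with exact 95% binomial intervals that cover counting error only. The embryonic points lie between 13.4 and 20.1% and the postnatal points between 1.32 and 6.48%.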

How the data were processed

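Whole lungs of C57BL/6 mice were sequenced as paired-end 101 nt reads in 12 libraries (TruSeq RNA, Illumina HiSeq). Per the labels, the authors aligned the reads to mm10 with TopHat2 2.1.1 and Bowtie2 2.3.4, kept unique matches and counted reads per Gencode gene with HTSeq 0.10.0. The deposited counts hold the 16152 genes they kept as expressed, with no normalization. The deposited CPM values hold 51825 genes, each count divided by the mapped reads of its library. Values in percent are the PSI that the authors deposited from VAST-TOOLS. Their corrected reads, which are not whole numbers, entered the formula of the exact binomial intervals without rounding. All per-sample columns were used.

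Counts were tested with edgeR 4.0.16 (quasi-likelihood, TMM, R 4.3.3) in 1 fit of all 12 libraries, over genes that reached 1 CPM in 3 or more libraries. The same test was run with DESeq2 1.42.0 and other settings given in the closing section. Whole reads were recovered from CPM (100.0% of values within 0.01 reads), and the test on these reads, chosen after seeing the data, called 2851 genes higher and 1525 lower from E18.5 to P5. Subunit ratios used an exact two-sided permutation test (scipy). Exon lengths, positions and overlaps came from Gencode vM21 on mm10, promoters from RefSeq on GRCm38.p6. The test script was checked on simulated counts.

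The 10 genes and the gene lists were chosen with earlier results of these data known, and no list serves as independent support. Named in full were the 10 genes, the constitutive catalytic subunits, *Psme1*, *Psme2*, *Irf1*, *Rfx5*, *Ciita*, *Ifng*, *Ifnb1* and the 5 most similar genes by each correlation. A gene of the regulator list is not reported here and was left out of that list after its values were seen. Of each other list the text names up to 4 genes called from E18.5 to P5 with the smallest p and up to 2 not called with the highest mean CPM. Replicate numbers mark no shared animal or litter, and *Itgb2* was also 1 of the leukocyte markers.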

Additional observations from a re-analysis of the deposited data

How the results depend on the processing

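Each comparison was repeated with library sizes alone, DESeq2 size factors, DESeq2, no filter on low counts, a replicate block, only the 2 time-points compared, each library left out in turn, the 3 thymus-rich libraries left out and reads recovered from CPM. All 10 genes stayed called higher across birth (E18.5 to P5) and over the whole span (E15.5 to P8) under every one of these, though leaving out the thymus-rich libraries removes none of E18.5 or P5. The call of 1 gene from E15.5 to E18.5 became 0 with only the 2 time-points and without the 3 thymus-rich libraries, and ranged from 0 to 1 with a library left out. The call of 1 gene from P5 to P8 became 0 without the 3 thymus-rich libraries, where P8 is a single library assumed to vary like the others. The cause was not tested. With the FDR alone, 3 of the 10 genes changed before birth (E15.5 to E18.5), where 11.6% of all genes were higher and 9.87% lower. Between P5 and P8 7 were higher, where 9.75% of all genes were. From E18.5 to P5 35.4% of all genes were higher and 35.7% lower, since this rule drops the fold threshold. Over that step it called 15 other heavy chains, all higher, and 9 loading partners, 2 higher and 7 lower. The 3 constitutive catalytic subunits and 8 other core subunits were lower. It also called 9 activators and assembly factors, 2 higher and 7 lower, and 21 regulators, 14 higher and 7 lower. Of 800 repeated log2 fold changes of single genes, 789 kept their direction and call, and 7 changed sign, all from E15.5 to E18.5 and none of them called. With a library left out, *Tap1* ranged from -0.34 to 0.087, *Psmb8* from -0.045 to 0.37, *Psmb9* from -0.45 to 0.24 and *Psmb10* from -0.34 to 0.075. Signs changed without E18.5 replicate 2 or 3 for *Tap1*, without E15.5 replicate 3 for *Psmb8* and without E15.5 replicate 2 for *Psmb9* and *Psmb10*, which gave 0.24 and 0.075 also without the 3 thymus-rich libraries.

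Replicate numbers did not pair the libraries (correlations of same-numbered deviations from -0.35 to 0.30), and with the replicate block the counts of called genes stayed at 1, 10, 1 and 10 in the order E15.5 to E18.5, E18.5 to P5, P5 to P8 and E15.5 to P8. The replicate block of the subunit ratios paired E15.5 with P5 and E18.5 with P8 by number, and the ratios differed by 3.59, 3.55 and 2.21. Such pairing cannot change a mean difference. As embryonic and postnatal libraries did not overlap, the exact sign-flip permutation p could only be 0.0312, the smallest 6 pairs allow. This setting therefore adds no support. The differences ranged from 3.51 to 3.66, 3.44 to 3.68 and 2.15 to 2.28 with a library left out, and were 3.05, 3.12 and 2.14 with 1 CPM added. By Spearman correlation 0 of the 5 most similar genes were shared with the Pearson list. A minimum of 20 reads could not change the *Tapbp* intron, because every library held at least 96.7 corrected reads there. Low counts limit *Nlrc5* before birth, and near-identical H2 genes limit the values of single heavy chains.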
